A study of Mus musculus with 6 samples.

Results

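TGF-beta ligands, their receptors and the Smad proteins downstream of them were followed in the prospective lens of the mouse embryo, with and without the transcription factor Pax6. The group held 10 genes, Tgfb1, Tgfb2, Tgfb3, Tgfbr1, Tgfbr2, Tgfbr3, Tgfbi, Ltbp1, Smad2 and Smad3, out of 17711 genes with a single symbol on the array. Its members were all probes annotated to these symbols, 25 of 46632. Tissue was taken at embryonic day 9.5 from 3 wild type embryos and from 3 Pax6-/- embryos, and both groups had the same mixed FVB and 129 strain background. The labels call the wild type tissue lens placode and the Pax6-/- tissue surface ectoderm, the sheet of cells in which a placode would form. It was cut out by laser microdissection, the left and right eye of an embryo were combined, and the amplified cDNA of each embryo was hybridised to 1 Illumina BeadArray, so a replicate is an embryo. The labels give neither the deleted part of Pax6 nor the sex of the embryos.

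TGF-beta ligands are secreted in a latent form that latent TGF-beta binding proteins such as Ltbp1 anchor to the matrix. Once released, they bind the type II receptor Tgfbr2, which recruits and phosphorylates the type I receptor Tgfbr1, and Tgfbr1 in turn phosphorylates Smad2 and Smad3. These join Smad4 and regulate genes in the nucleus. The coreceptor Tgfbr3, also called betaglycan, presents ligand to Tgfbr2 and matters most for the ligand encoded by Tgfb2, which binds Tgfbr2 poorly on its own. In chick embryos, TGF-beta signals from neural crest cells restrain lens fate in head ectoderm outside the lens, and mice without Tgfb2 have eye defects.

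The arrays were alike in quality, with 38.8% to 41.6% of probes detected, where detected means a detection p-value under 0.05. Knockout 1 lay away from the rest on principal component 1 (64.1, against -31.2 to 1.55 for the other arrays). Counts of member probes passing, and the differences of both Tgfb2 probes and the brighter Tgfbr3 probe, are therefore also given without it. Pax6 itself read 0.74 lower on the log2 scale in knockout by its brightest probe (SE 0.21, limma adjusted p = 0.448), -0.66 by the second and -0.41 by the third (adjusted p = 0.528 and 0.876). The third overlapped between the groups, with knockout 2 and 3 at 8.59 and 8.60, inside the wild type range of 8.45 to 8.77. Xist was detected on 0 of 3 knockout arrays and the Y-linked gene Kdm5d on 0 of 3 wild type arrays, with means of 9.34 in wild type for Xist and 6.20 in knockout for Kdm5d. Other Y-linked probes were detected in some wild type embryos, Uty ILMN_1228910 on 1 array (wild type 2, at 6.56) and Eif2s3y ILMN_1215914 on 2, each below all 3 knockout values. Since Xist and these genes divide the arrays as genotype does, genotype and sex cannot be told apart in any comparison here. Of 10 surface ectoderm and lens placode markers, 8 were detected on all 6 arrays, among them Epcam, Krt8 and Cdh1, while the later lens genes Pitx3 and Foxe3 were detected on 0 arrays. Of 10 macrophage and platelet markers, 8 had a probe on the array, and of these only Aif1 was detected on at least 3 arrays. Precision is limited by there being 3 arrays per genotype.

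The upstream region of Tgfb2 is shown because Tgfb2 had the largest difference between the genotypes among the tested members. The 250 bases before its start, at chr1:186705990-186706239 on the minus strand (RefSeq, GRCm38.p6), are printed 5′ to 3′ along the gene, with capitals for the motifs searched. Both strands were searched for 4 motifs. The core of a cAMP response element was spelled TGACG. The E-box was spelled CACGTG. The TATA box was spelled TATAA. The Smad box was spelled CAGACA.
Tgfb2: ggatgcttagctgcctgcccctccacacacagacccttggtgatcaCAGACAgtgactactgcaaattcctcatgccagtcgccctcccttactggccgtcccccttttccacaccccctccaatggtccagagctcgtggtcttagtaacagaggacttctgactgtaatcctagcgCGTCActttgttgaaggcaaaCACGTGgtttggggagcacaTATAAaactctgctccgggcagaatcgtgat
The TATA box began 31 bases, the E-box 51 bases and the cAMP response core, here on the opposite strand as CGTCA, 72 bases before the start, and the Smad box lay farther out, at 204 bases. Among 32851 RefSeq windows of this length, 22.8% held the TATA box, 6.02% the E-box, 17.8% the cAMP response core and 17.1% the Smad box. Windows were used for 7 of the members (not Tgfb3, Tgfbr3 or Smad2), and of these only Tgfb2 held the E-box or the TATA box. The Smad box was also found upstream of Tgfbr1 and Ltbp1, and the cAMP response core also upstream of Ltbp1. These matches are a description of the sequence, and no binding was measured in these embryos.

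Which of these genes could be read in the placode at all is the first result. The deposited signals, before any normalization, placed 9 of the 25 probes above detection on all 6 arrays and 7 on none. A filter that kept probes detected on at least 3 arrays left 14 probes of 8 genes. Tgfb1 and Tgfbr2 had no probe that passed.

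**Figure D1:**
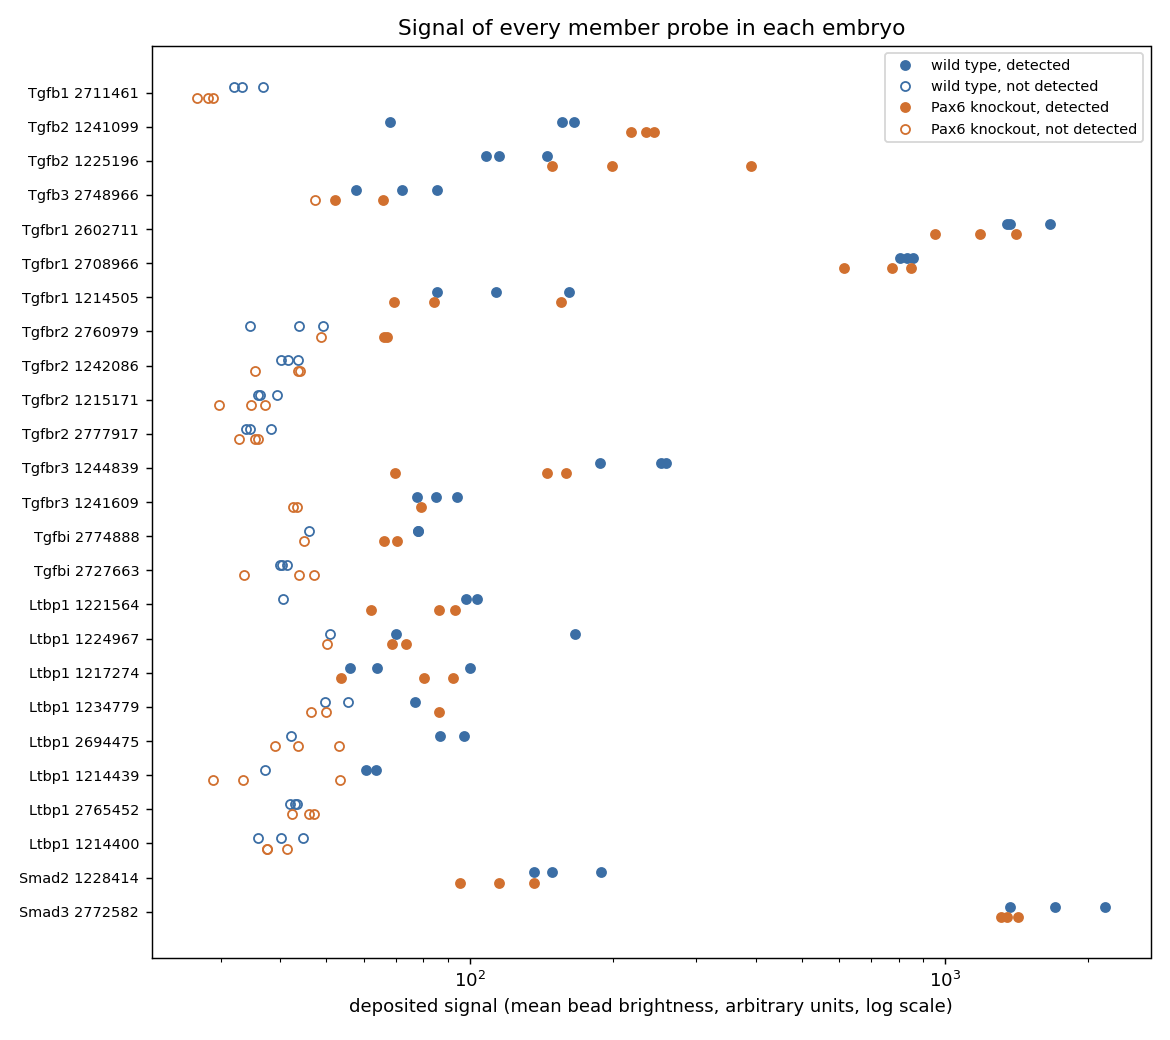
Deposited signal of all 25 probes (rows, gene and probe number) in the 3 wild type (blue) and 3 Pax6 knockout (orange) embryos on a log axis in arbitrary units, with filled points for arrays where the probe was detected. Tgfb1 and 3 of the 4 Tgfbr2 probes were detected nowhere, and Smad3 and all 3 Tgfbr1 probes were among those detected in every embryo.

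Among the 14 kept probes, both probes of the ligand Tgfb2 read higher in knockout and both probes of the coreceptor Tgfbr3 read lower, but 0 of 14 passed an adjusted p of 0.05 by limma. Over all 19381 kept probes 18 passed, or 0.0929%, with 7 higher and 11 lower in knockout, and 3 higher and 8 lower when arrays were scaled to a common median and not quantile normalized. At an unadjusted p under 0.05 there were 4 of the 14, against 7.22% of all kept probes, and these 4 were the pairs of Tgfb2 and Tgfbr3, which are 2 genes and not 4 separate observations. The 3 knockout values lay wholly above wild type for 2 of the 14 (both Tgfb2), against 5.54% of all kept probes, and wholly below for 1 (a Tgfbr3 probe), against 6.47%. The median log2 difference over the 14 was -0.15, beside -0.0039 over all kept probes. Of the 14, 5 read higher and 9 lower. Without knockout 1, and likewise without wild type 1, 0 passed and 2 had an unadjusted p under 0.05, both of Tgfb2. In these fits the share of all kept probes under 0.05 was 6.81% and 7.35%. With any other single array left out there were 3 or 4 member probes, against 5.64% to 7.5% of all kept probes.

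**Figure D2:**
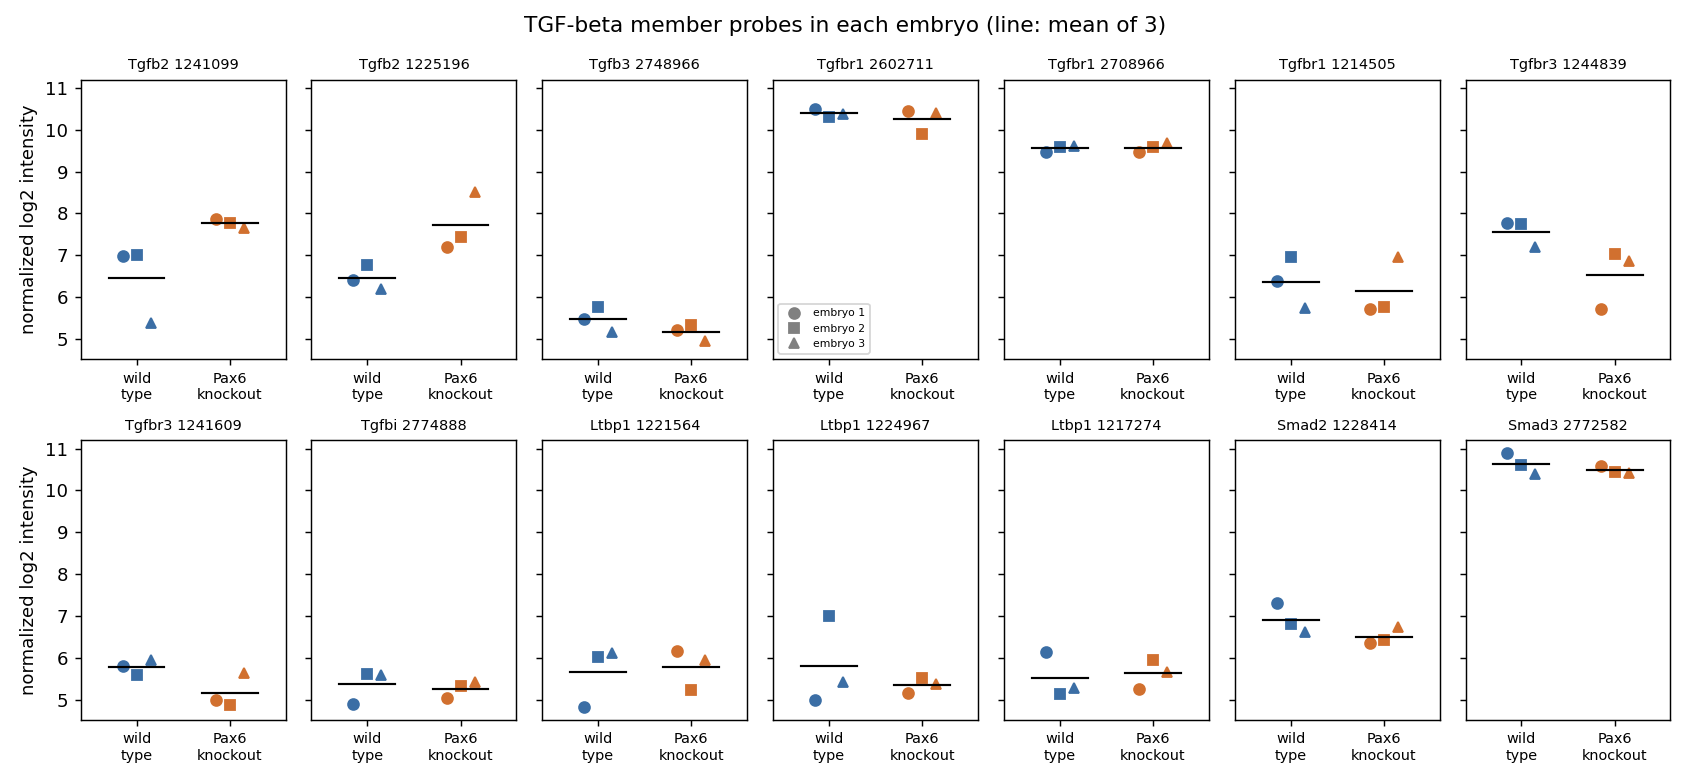
Normalized log2 intensity of the 14 kept probes in each embryo, wild type in blue and Pax6 knockout in orange, with embryo number by symbol and the mean of 3 as a line. The knockout points lie above all wild type points for both Tgfb2 probes and below them for Tgfbr3 probe ILMN_1244839.

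The ligands come first. With the Tgfb2 probe ILMN_1241099 the deposited signal was 157, 166 and 67.9 in wild type 1, 2 and 3, and 219, 245 and 235 in knockout 1, 2 and 3. The knockout embryos lay close together, while wild type 3 was far below the other wild type embryos. The standard error over the beads of this probe was 4.31 in wild type 3 (31 beads) and 5.35 in wild type 2 (33 beads).

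After normalization this probe read 6.97, 7.00 and 5.37 in wild type and 7.86, 7.78 and 7.66 in knockout. All 3 knockout embryos were above all 3 wild type embryos. The means were 6.45 ± 0.93 and 7.77 ± 0.10 (SD, n = 3 embryos each), a 2.49-fold difference (log2 difference 1.32, SE 0.44, limma adjusted p = 0.528). Without wild type 3 the log2 difference was 0.78.

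The other Tgfb2 probe, ILMN_1225196, had its spread in the opposite group. Its signal was 116, 146 and 108 in wild type and 149, 199.6 and 392 in knockout, so knockout 3 was the highest. The normalized values were 6.42, 6.77 and 6.20 in wild type and 7.20, 7.44 and 8.50 in knockout, again with no overlap. The means of 6.46 ± 0.28 and 7.71 ± 0.69 differed 2.38-fold (log2 difference 1.25, SE 0.38, limma adjusted p = 0.499).

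The pair of Tgfb2 probes correlated at a Pearson r of 0.71 over the 6 arrays, which share the genotype contrast. For ILMN_1225196 the signal had a coefficient of variation of 51.9% between the knockout embryos and 16.1% between the wild type embryos. Without knockout 3 its log2 difference was 0.85, and without knockout 1 the differences of the probes were 1.50 and 1.27.

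Markers of other cell types are given beside Tgfb2, and none of them passed. Of 10 optic vesicle and neuroepithelium markers, 5 were tested and 4 of these read higher in knockout, with list means of 5.88 to 6.25 in wild type and 6.14, 6.75 and 6.33 in knockout 1, 2 and 3. Hes5, Fabp7 and Sox1 were detected on 0 arrays. Of 12 head mesenchyme and neural crest markers, 7 were tested and 5 read higher, with list means of 6.88 to 7.26 in wild type and 6.90 to 7.35 in knockout. Pdgfra read -0.82 and Col3a1 0.93, each without overlap, and Col1a1, Foxc1, Sox10, Foxd3 and Lum were detected on 0 arrays. Of 8 red cell markers, 5 were tested and 4 of these read higher, with a median log2 difference of 1.54. Their list means in wild type 1, 2 and 3 were 7.34, 6.70 and 5.82. Those in knockout 1, 2 and 3 were 6.75, 7.94 and 8.64. The list was lowest in wild type 3, as were both Tgfb2 probes, and highest in knockout 3, as was ILMN_1225196. ILMN_1241099 instead was highest in knockout 1 (7.86), where the list was below wild type 1, and knockout 3 was its lowest knockout array (7.66). Among these markers Alas2 ran the other way, highest in wild type 3 (7.64) and lower in knockout (-0.56). The globin genes Hba-a1 (2.02, SE 0.73) and Hba-x (1.83, SE 0.70) overlapped between the groups, and Klf1 was detected on 0 arrays. Of 10 endothelial markers, 4 were tested and 3 read higher, with overlapping list means of 6.07 to 6.63 and 6.21 to 6.81, and Cdh5, Tek and Tie1 were detected on 0 arrays. The part of these cells in the Tgfb2 difference was not tested, and in bulk tissue fewer cells of a type and less RNA per cell cannot be told apart.

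Tgfb3, the ligand known for its part in palate fusion, read lower in knockout by about the SD between the wild type embryos (0.30). Its signal was 72.0, 85.4 and 57.6 in wild type and 52.0, 65.8 and 47.4 in knockout, and knockout 3 was not above detection. The groups overlapped. The log2 difference was -0.30 (95% interval -0.77 to 0.17, limma adjusted p = 0.860).

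Tgfb1, the ligand best known from blood and immune cells, was not above detection on any array. Its single probe read 31.9 to 36.8 in wild type and 26.7 to 28.8 in knockout, within the range where no level can be given. The absence of a call says nothing about Tgfb1 below that brightness.

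Ltbp1, which holds latent ligand in the matrix, had 8 probes that did not tell 1 story. Of these, 3 passed the filter, 3 were detected on 2 arrays each and 2 on none. Wild type 2 was the highest array by ILMN_1224967, at 167 against at most 73.5 on the others. By ILMN_1217274 wild type 1 was the highest, at 100.2, and by ILMN_1221564 the same embryo was the lowest, at 40.5 and below detection.

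Across the 6 arrays ILMN_1217274 and ILMN_1221564 ran against each other, with a Pearson r of -0.93. The log2 differences by genotype were -0.46 for ILMN_1224967, 0.12 for ILMN_1221564 and 0.10 for ILMN_1217274, with limma adjusted p-values of 0.920, 0.987 and 0.985. The direction of each of the 3 turned when a single array was left out, so no direction is given for Ltbp1. Another pair of probes was detected only in wild type. ILMN_2694475 was detected in wild type 1 and 2, at 86.9 and 97.1, but not in wild type 3 (42.0), inside the knockout range of 39.0 to 53.0. With the knockout arrays raised to their lowest detected value, the ratio of means was 1.34-fold, higher in wild type. This bound has no sampling error, and the groups overlapped. In the fit with no filter on dim probes its log2 difference was -0.63 (SE 0.30, limma adjusted p = 0.92). ILMN_1214439 was detected in wild type 1 and 3, at 60.6 and 63.4, but not in wild type 2 (37.1). It read 28.8 to 53.5 in knockout and gave no bound above 1.

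At the receptors, the coreceptor Tgfbr3 read lower in knockout by both probes. The signal of ILMN_1244839 was 253, 259 and 188 in wild type and 69.7, 159 and 146 in knockout. Knockout 1 was the lowest, and the highest knockout value was below the lowest of wild type. Normalized, the probe read 7.76, 7.75 and 7.19 in wild type and 5.72, 7.04 and 6.85 in knockout. The means of 7.57 ± 0.33 and 6.54 ± 0.71 differed 2.04-fold (log2 difference -1.03, SE 0.39, limma adjusted p = 0.624), and the log2 difference was -0.62 without knockout 1.

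The other Tgfbr3 probe, ILMN_1241609, was detected in all 3 wild type embryos and in knockout 3 only. Its signal was 84.8, 77.5 and 94.3 in wild type and 42.5, 43.3 and 79.2 in knockout. Knockout 3 lay inside the wild type range and the other knockout embryos lay below it. The log2 difference was -0.62 (SE 0.25, limma adjusted p = 0.662), and it was -0.34 with a background offset of 50, a value that rests on 2 knockout arrays below detection.

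Surface ectoderm and lens placode markers are given beside Tgfbr3. Of the 8 tested, 5 read lower and 3 higher in knockout, and their list means were 8.87 to 9.02 in wild type and 8.53 to 8.71 in knockout, without overlap. The lower ones were Sox2 (-0.86), Six3 (-0.80), Tfap2a, a transcription factor of surface ectoderm (-0.59), Epcam (-0.38) and Cdh1 (-0.18). The keratins Krt8 and Krt18 were 0.14 and 0.15 and Trp63 was 0.055. Only Tfap2a and Epcam did not overlap between the groups, and none of the 8 passed. The part of tissue makeup in the Tgfbr3 difference was not tested.

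The type I receptor Tgfbr1, the kinase that carries the signal to Smad2 and Smad3, showed no difference beyond the spread between embryos. Its probe ILMN_2602711 read 10.51, 10.30 and 10.37 in wild type and 10.46, 9.90 and 10.39 in knockout, with knockout 2 the lowest. The log2 difference was -0.14 (95% interval -0.52 to 0.23, limma adjusted p = 0.930). Probe ILMN_2708966 had the narrowest interval of the 14, a difference of 0.019 (-0.28 to 0.31), but it turned to -0.19 with median scaling, a setting in which the median of all kept probes moved to -0.15. The dimmest, ILMN_1214505, spread from 5.75 to 6.96 in wild type and from 5.71 to 6.97 in knockout, and its interval of -1.27 to 0.85 leaves a difference of either sign possible.

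Tgfbr2, the type II receptor without which the ligands do not signal, was at the limit of detection. Of its 4 probes, 3 were detected on 0 arrays, with signals of 29.7 to 44.0. The remaining one, ILMN_2760979, was detected in knockout 1 and 3, at 67.2 and 66.2, and not in knockout 2 (48.7) or in wild type (34.5 to 49.1). With the wild type arrays raised to their lowest detected value, the ratio of means was 1.14-fold, higher in knockout. This bound has no sampling error, and the groups overlapped. In the fit with no filter on dim probes its log2 difference was 0.43 (SE 0.18, limma adjusted p = 0.923).

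**Figure D3:**
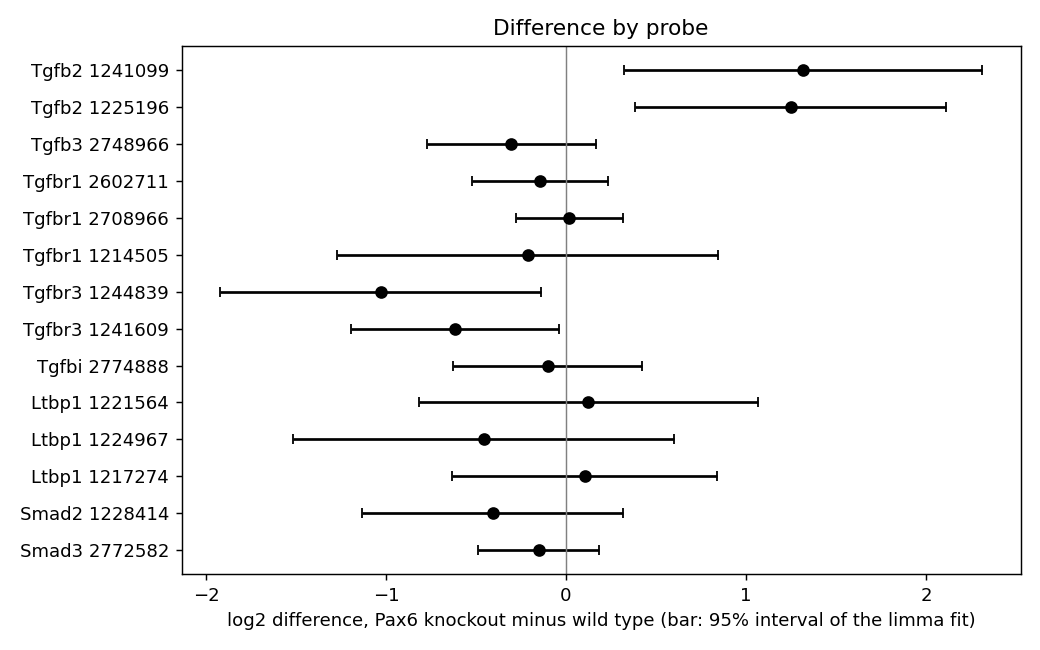
Log2 difference of knockout minus wild type for the 14 kept probes, with the 95% interval of the limma fit for each probe taken singly. The intervals of both Tgfb2 probes lie above 0 and those of both Tgfbr3 probes below 0, and none of the 14 passed the adjusted threshold over all kept probes.

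Of the Smads, Smad3 was read at high signal in every embryo, at 2174, 1708 and 1370 in wild type and 1314, 1354 and 1424 in knockout. Normalized, it read 10.89, 10.61 and 10.40 in wild type and 10.59, 10.44 and 10.41 in knockout, and the groups overlapped. The log2 difference was -0.15 (95% interval -0.49 to 0.19, limma adjusted p = 0.912).

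Smad2 read 7.30, 6.81 and 6.63 in wild type and 6.37, 6.42 and 6.73 in knockout. Knockout 3 lay inside the wild type range and the other knockout embryos below it. The log2 difference was -0.41 (95% interval -1.13 to 0.32, limma adjusted p = 0.877).

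Tgfbi, a secreted matrix protein named for its induction by TGF-beta, was faint. Its probe ILMN_2774888 was detected in wild type 2 and 3 and in knockout 2 and 3, at 66.0 to 78.1, and in neither embryo 1 (46.0 and 44.9). The log2 difference was -0.10 (95% interval -0.63 to 0.42, limma adjusted p = 0.975). The other Tgfbi probe was detected on 0 arrays.

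Differences of Tgfb2 and Tgfbr3 kept their direction in every alternative in which the probe was tested, with each array left out among them. These were all 18 alternatives for ILMN_1241099 and ILMN_1244839, 16 for ILMN_1225196 and 15 for ILMN_1241609, since the latter pair has no value of its own where a gene is read by 1 probe or by its mean, and ILMN_1241609 did not pass the stricter filter. The Tgfb2 probes ranged from 0.78 to 1.59 for ILMN_1241099 and from 0.85 to 1.50 for ILMN_1225196. The Tgfbr3 probes ranged from -1.28 to -0.62 for ILMN_1244839 and from -0.85 to -0.34 for ILMN_1241609. None passed in any of these, and the lowest adjusted p was 0.249, for Tgfb2 with a stricter filter. The groups were separate for both Tgfb2 probes and Tgfbr3 ILMN_1244839 from the start. Leaving out an array could therefore neither have brought these to overlap nor have turned their direction. Changing the filter, the variance model or the replicate block, or reading a gene by 1 probe, leaves the difference itself as it was. Those alternatives could not have turned any direction.

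**Figure D4:**
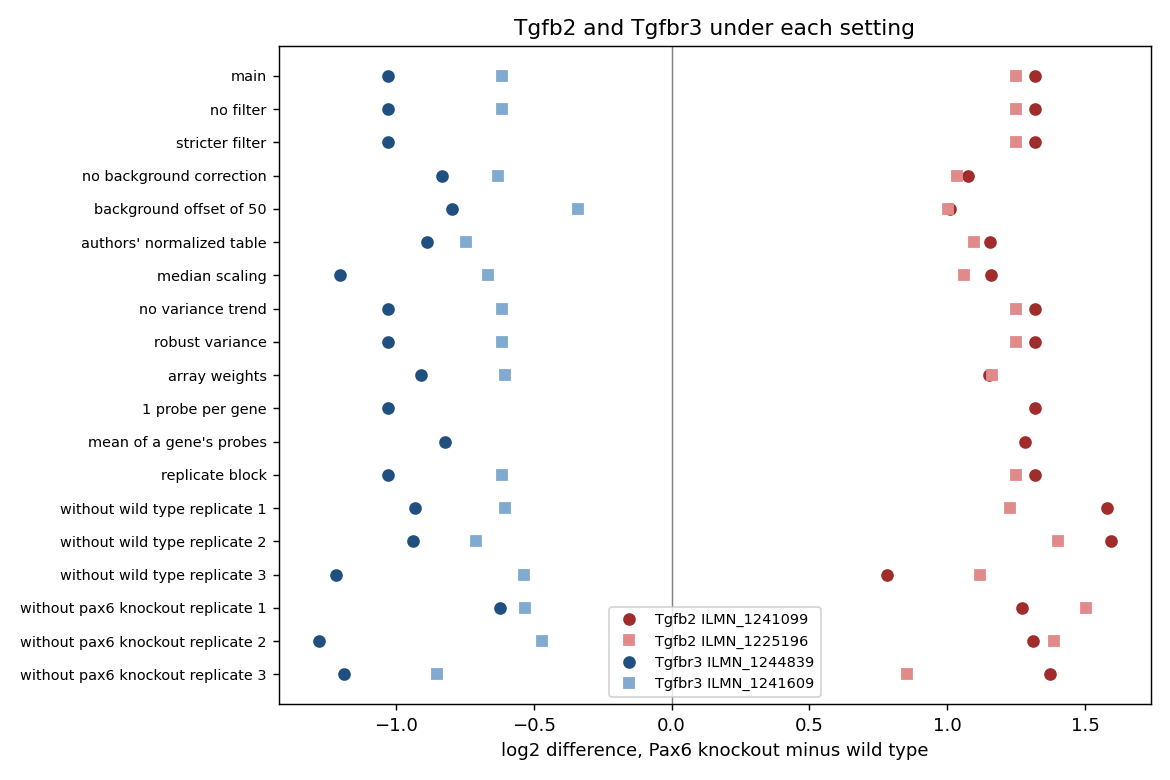
Log2 difference of knockout minus wild type for the Tgfb2 (red) and Tgfbr3 (blue) probes in the reported fit (top row) and under the alternatives (rows below), with no point where a probe was not tested. All Tgfb2 points lie above 0 and all Tgfbr3 points below 0, and the lowest Tgfb2 value, 0.78, is the one without wild type 3.

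By likeness over the 6 arrays, the genes closest to Smad3, the member with the brightest probe, were Cnep1r1 (Pearson r 0.990), Fam149a (0.989) and Defb46 (0.985). Closest to Tgfb2 by its probe with the smallest p, ILMN_1225196, were Plekhg4 (0.983), Hgh1 (0.981) and Tmem164 (0.977). These were the top 3 of 9617 genes for each member over only 6 points, and the latter 3 followed that probe more closely than the other Tgfb2 probe did (0.71).

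Other genes of the pathway did not set the genotypes apart. Of 96 listed, 57 were tested by their brightest kept probe, 30 read higher and 27 lower in knockout, and 0 passed an adjusted p of 0.05, against 0.116% of the 14686 genes and unnamed probes read in the same way. At an unadjusted p under 0.05 there were 5, or 8.77%, against 7.44%. The groups did not overlap for 8, or 14.0%, against 12.1%. The median log2 difference was 0.014, beside 0.0022 over all genes. These shares are near the background.

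Ligands of the activin and nodal branch, which also signal through Smad2 and Smad3, were mostly undetected. Only Gdf11 (-0.082) and Nodal (-0.052) of 12 listed were tested, and Lefty1 and Lefty2, the antagonists of Nodal, were detected on 0 arrays. Among the receptors and coreceptors of the branch 4 of 9 were tested. The activin receptor Acvr2a was 0.37 higher (SE 0.33) and Acvr1b -0.19 (SE 0.21), while Acvr2b (0.014) and Eng (0.024) differed least.

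Of 16 genes for latency and activation, 5 were tested. Itgb8, whose integrin frees TGF-beta from its latent complex, read 6.60, 7.80 and 6.55 in wild type and 5.49, 6.02 and 6.29 in knockout, without overlap (log2 difference -1.05, SE 0.43, limma adjusted p = 0.662). The microfibril gene Fbn2 read 7.88 to 7.98 in wild type and 8.08 to 8.45 in knockout (0.32, SE 0.19). Itgav, the partner chain of Itgb8, was -0.20 (SE 0.42), and Itgb6 was 0.030. Ltbp2, Ltbp3 and Ltbp4 were detected on 0 arrays.

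The other Smads tested were 3 of 6 listed. Smad4, the shared partner of Smad2 and Smad3, was -0.14 (SE 0.12), Smad1, which acts in BMP signalling, was 0.14 (SE 0.19), and the inhibitory Smad7 was 0.032 (SE 0.24). Each of them overlapped between the groups.

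Smad regulators and partners gave 24 of 27 tested, 11 higher and 13 lower (median -0.051). Dab2, an endocytic adaptor linked to TGF-beta receptors, read 8.23, 8.03 and 7.68 in wild type and 8.43, 8.79 and 8.50 in knockout (log2 difference 0.60, SE 0.21, limma adjusted p = 0.569). Zeb1, a zinc finger repressor of epithelial genes, was 0.75 higher (SE 0.36), at 7.78 and 7.77 in knockout 2 and 3 but 6.75 in knockout 1, inside the wild type range of 6.33 to 6.87. The Smad corepressor Ski was 0.74 higher (SE 0.38) and the kinase Hipk2 0.45 higher (SE 0.24).

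Genes that TGF-beta is known to induce or repress in various cells gave 22 of 30 tested, 14 higher and 8 lower (median 0.11). The collagen Col3a1 read 6.20, 5.98 and 5.64 in wild type and 6.38, 7.30 and 6.93 in knockout (log2 difference 0.93, SE 0.36, limma adjusted p = 0.637), and it is also a mesenchyme marker. Ccn1, a matricellular protein, was 0.63 higher (SE 0.28). Bhlhe40, detected on only 3 arrays, was 0.56 higher (SE 0.25), and Vim, the intermediate filament of mesenchyme and early ectoderm, 0.41 higher (SE 0.19). Groups overlapped for Bhlhe40 and Vim. Of the 8 lower, Itgb5 (-0.60, SE 0.38) and Fn1 (-0.45, SE 0.29) differed most, each with overlap. Tagln, Col1a1, Junb, Klf10 and Snai1 were detected on 0 arrays. Of the members of this list shared with other lists, Tgif1 (0.048), Skil (0.19) and Smad7 (0.032) were near 0.

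**Figure D5:**
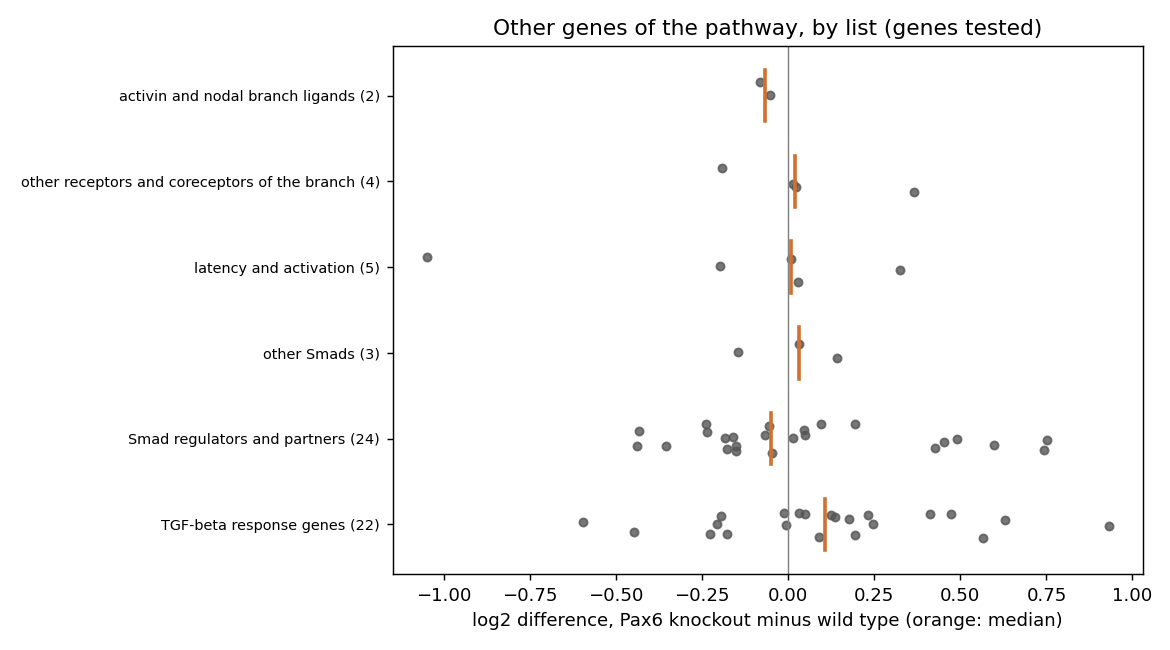
Log2 difference of knockout minus wild type for the other pathway genes tested, 1 point per gene in each of 6 lists, with the list median in orange. The points scatter on both sides of 0, with medians between -0.067 and 0.11, and Itgb8 at -1.05 and Col3a1 at 0.93 are the outermost.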

How the data were processed

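The members and gene lists were chosen with earlier results of these data known. Per the submitters' processing notes the arrays were read with GenomeStudio. The deposited signal table holds linear intensity that still includes background (minima 21.8 to 25.8) and was not scaled between arrays (medians 41.7 to 49.8). Beside it stand a deposited detection p-value and a deposited count of the beads averaged per probe. The authors' second deposited table holds linear, background-subtracted and normalized intensity by a method not given in the sources used here, and served as an alternative. Its array medians were nearly equal, at 7.49 to 7.51. Symbols came from GEO's platform annotation: 29976 probes had 1 symbol, 10 several, and 16646 were unnamed here. Of the named, 29921 had Entrez identifiers in the RefSeq table (GRCm38.p6).

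Background was removed by normexp, with its parameters taken from detection p-values (offset 16), and signals were quantile normalized and brought to log2 (neqc, limma 3.58.1, R 4.3.3). Probes detected on at least 3 arrays were kept. Genotype was tested per probe with lmFit and eBayes with a variance trend, with Benjamini-Hochberg adjustment over all 19381 kept probes, so that each member probe has its own value. An exact permutation test of 3 against 3 cannot go below a two-sided p of 0.10. A probe undetected in 1 genotype has a bound, the brighter mean over the dimmer mean with each dim array raised to at least its lowest detected value, for the offset used. This bound is a ratio of means and has no sampling error. Named genes were all member probes, up to 4 genes per list with the smallest p, others given with their lists, the check genes, and the 3 most alike genes for 2 members. Genes named beyond these were chosen after their values were seen. Alternatives changed the filter, background, normalization, variance model, weights, probe rule, block and arrays.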

Additional observations from a re-analysis of the deposited data

How the results depend on the processing

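No member probe and no other pathway gene passed in any of the 18 alternatives in which it was tested. Over all probes, 18 passed in the reported fit, 7 with no filter, 68 with a stricter filter, 28 with no background correction, 11 with median scaling, 31 with array weights and 3 to 7 with 1 array left out. Deviations of same-numbered embryos correlated at -0.047 to -0.022, and 0 of 6 arrays correlated best with their own number. The replicate block, a fit with fewer degrees of freedom, left 1 call over all probes and 0 among the members. These values cannot show that same-numbered embryos have nothing in common. Of 233 values of the 14 member probes under alternatives, 215 kept their direction and 18 turned, and 7 probes never turned (Tgfb2, Tgfbr3, Smad2, Smad3 and Tgfb3). The 215 include values that could not turn. The filters, variance models, replicate block and reading by 1 probe leave the difference of a probe unchanged, so this share does not measure stability. Ltbp1 ILMN_1221564 turned to -0.0057 with median scaling, -0.11 with array weights and -0.076 with the mean of the gene's probes, and Tgfbr1 ILMN_2708966 to -0.19 with median scaling, where the median of all probes was -0.15. With 1 array left out, the ranges were -0.29 to 0.40 for Ltbp1 ILMN_1221564, -0.86 to 0.14 for ILMN_1224967 and -0.089 to 0.41 for ILMN_1217274, -0.33 to 0.017 for Tgfbi ILMN_2774888, and -0.033 to 0.074, -0.62 to 0.084 and -0.25 to 0.030 for Tgfbr1 ILMN_2708966, ILMN_1214505 and ILMN_2602711. The cause was not tested. Tgfb1 and Tgfbr2 had no kept probe, and at least 1 kept probe each of Tgfb3, Tgfbi, Ltbp1 and Tgfbr3 was below detection on some arrays.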
